A study of Rattus norvegicus with 8 samples.

Results

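Expression of the proteasome genes was measured in rat liver after high fat diet or standard chow. The genes were taken by symbol: every array probe whose design accession belongs to a rat gene starting with Psma, Psmb, Psmc, Psmd, Psme, Psmf or Psmg was included, apart from the interferon-inducible Psmb8, Psmb9 and Psmb10. The choice gave 49 of the 30367 probes on the array, for 43 of the 15168 gene symbols that could be named. It comprises 14 genes of the 20S core, 16 genes of the 19S regulatory particle, 5 activators and inhibitors, 5 assembly chaperones, Psma8, and 2 genes that share the letters without being subunits (Psmc3ip and Psme3ip1). The study holds 8 single-colour arrays, 1 for each liver sample, from male rats aged 22 weeks. The high fat samples (n = 5) came from rats given that diet for 14 weeks and are labelled as non-alcoholic fatty liver disease, and the chow samples (n = 3) came from controls given standard chow for the same 14 weeks. The labels give no strain, and whether every sample is a separate rat is not stated in them, so the spread behind each p-value is that between samples and could be technical.

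The proteasome is the main protease of the cytosol and nucleus and degrades proteins that carry chains of ubiquitin. Its core is a barrel of stacked rings, in which the outer rings of alpha subunits hold the gate and the inner rings of beta subunits hold the active sites. The regulatory particle caps the barrel: ATPases unfold the substrate, receptors bind ubiquitin, and a lid carries the enzyme that removes the ubiquitin chain. In mouse and human cells the transcription factor NRF1, the product of Nfe2l1, raises proteasome genes together when the enzyme is inhibited, through antioxidant response elements in their promoters.

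Promoters of genes on which the results turn are shown so that the presence or absence of motifs tied to proteasome genes can be read beside the values. RefSeq sequence of assembly GRCr8 was available for 39 of the 43 genes, and the 250 bases before the annotated start were searched on both strands for TGACNNNGC, the core of the antioxidant response element, and for CCAAT, which CCAAT box factors bind. Psma7, Psmd6, Psmd12 and Psmd14 had no entry. Psmb5 lies at chr15:32047380-32047629 (minus strand), Psmb6 at chr10:55737638-55737887 (plus strand), Psma3 at chr6:95219499-95219748 (plus strand), Psmc4 at chr1:92485061-92485310 (minus strand) and Psmd4 at chr2:185297202-185297451 (minus strand). Psmb5 and Psmb6 encode active-site subunits, Psma3 had the largest positive difference by diet among the 43 genes, and Psmc4 and Psmd4 had the largest negative ones. The sequences run 5′ to 3′ on the strand of the gene, and capitals mark every match of either motif on either strand.
Psmb5: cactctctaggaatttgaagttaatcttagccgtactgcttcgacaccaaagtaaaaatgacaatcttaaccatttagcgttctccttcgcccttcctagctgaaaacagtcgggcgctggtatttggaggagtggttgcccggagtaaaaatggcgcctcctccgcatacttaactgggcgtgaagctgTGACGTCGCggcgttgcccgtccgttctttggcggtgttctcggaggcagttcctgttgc
Psmb6: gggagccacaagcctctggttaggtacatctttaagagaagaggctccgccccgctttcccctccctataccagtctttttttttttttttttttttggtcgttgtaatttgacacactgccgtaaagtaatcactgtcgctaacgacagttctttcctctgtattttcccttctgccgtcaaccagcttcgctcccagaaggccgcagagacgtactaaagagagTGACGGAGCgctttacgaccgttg
Psma3: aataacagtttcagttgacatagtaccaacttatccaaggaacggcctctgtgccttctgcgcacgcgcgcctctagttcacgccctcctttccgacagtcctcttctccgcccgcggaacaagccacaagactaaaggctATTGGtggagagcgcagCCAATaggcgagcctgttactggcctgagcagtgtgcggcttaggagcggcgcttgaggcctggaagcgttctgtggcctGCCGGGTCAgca
Psmc4: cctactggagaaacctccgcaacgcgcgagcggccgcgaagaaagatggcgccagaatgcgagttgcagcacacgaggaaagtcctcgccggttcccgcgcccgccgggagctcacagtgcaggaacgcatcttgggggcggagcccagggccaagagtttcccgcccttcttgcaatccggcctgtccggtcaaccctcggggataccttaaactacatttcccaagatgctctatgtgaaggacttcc
Psmd4: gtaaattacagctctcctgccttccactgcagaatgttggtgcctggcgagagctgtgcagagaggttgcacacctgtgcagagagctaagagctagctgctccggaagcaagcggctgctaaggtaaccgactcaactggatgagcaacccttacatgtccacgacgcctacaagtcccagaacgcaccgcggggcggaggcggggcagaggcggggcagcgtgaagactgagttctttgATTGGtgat

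TGACNNNGC stood in 7 of the 39 promoters (Psma3, Psmb2, Psmb5, Psmb6, Psmd1, Psmd9 and Psme4), and in 10.1% of the 33469 promoters of the whole table. Of these, 4 were among the 13 core promoters and 1 among the 13 regulatory particle promoters. The match began 60 bases before the start in Psmb5, 24 bases before it in Psmb6 and 12 bases before it in Psma3. CCAAT stood in 20 of the 39 promoters and in 34% of all promoters, in 9 of 13 core genes and 5 of 13 regulatory particle genes. Matches of the 2 motifs overlapped in 1 of the member windows. Psmc4 held neither motif in this window and Psmd4 held CCAAT alone, on the opposite strand. The median log2 fold change was −0.35 over the genes with TGACNNNGC and −0.20 over those without it. The genes with TGACNNNGC all lay in the 2 brightest deciles of mean signal, where the median over all probes was −0.20. Of these genes Psme4 and Psmd9 were read at their brighter probes, and their dimmer probes differed by 0.11 and −0.50. The median was −0.13 over the genes with CCAAT and −0.25 over those without it. These are descriptions of letters in a window and of medians, with no test.

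Signal was brighter on the high fat arrays than on the chow arrays. Between 79.1% and 92.8% of probes were well above background on the high fat arrays and between 66.9% and 71.8% on the chow arrays, and the 75th percentile of the processed signal was 725 to 1045 intensity units on high fat arrays and 278 to 559 on chow arrays. Scan times in the file headers put high fat arrays 2, 3 and 5 in one scan (scan 1), the 3 chow arrays in another on the same day (scan 2), and high fat arrays 1 and 4 in the last, on another day (scan 3). No scan held both diets, so scan and diet cannot be told apart. All 8 hepatocyte markers, among them albumin, were above background on every array. In the 8 marker lists of liver and neighbouring cell types 0 genes passed the limma test, against 3.45% of all probes. The unadjusted p from limma was under 0.05 for 3 hepatocyte markers and 1 macrophage marker, all below 0. It was also under 0.05 for 3 stellate cell markers, of which 2 were below 0 and 1 above. Over all probes 20.1% had an unadjusted p under 0.05. All 8 hepatocyte markers had differences below 0, with a median log2 fold change of −0.37. Of these markers 7 lay in the 2 brightest deciles of mean signal, where 73.4% of all probes were below 0. Set against the median of each marker's own decile, their median was −0.16. Their summed linear signal, in multiples of the 75th percentile, was 575 to 659 on the high fat arrays and 594 to 962 on the chow arrays. For 6 macrophage markers the sum was 18.2 to 24.0 on high fat arrays and 23.3 to 31.3 on chow arrays, although 4 of the 6 had differences above 0 and the median log2 fold change was 0.24; the bright Kupffer cell marker Clec4f differed by −0.59. For 6 stellate cell markers the sum was 13.3 to 19.7 on high fat arrays and 17.1 to 34.0 on chow arrays, with a median log2 fold change of −0.46. Among them the bright collagen gene Col3a1 differed by −0.76 and Lrat, which encodes the enzyme that stores vitamin A, by 0.44 with no overlap between diets. The part of these markers in the proteasome values was not tested. In bulk liver, fewer cells of a type and less RNA in each cell cannot be told apart.

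Values are given as log2 of the processed signal relative to the 75th percentile of the same array, so a positive value lies above that percentile, and a difference of 1 is a 2-fold change. Differences are high fat diet minus chow, fitted with limma over all 25629 probes kept and adjusted by the Benjamini-Hochberg method with a threshold of 0.05. Levels of different probes are not comparable, since each probe binds with its own strength.

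No proteasome gene passed the test between the diets, which does not show that their levels were equal. Of the 49 probes 48 were bright enough to test, covering all 43 genes, and 0 of 48 passed, against 3.45% of all probes (884 of 25629). Over the whole array 768 probes rose (3.0%) and 116 fell (0.453%), and the split was 852 higher and 307 lower with quantile normalization and 1114 higher and 1203 lower with normexp background and quantile normalization together. The differences of the proteasome genes were small and mostly negative. The log2 fold change was below 0 in 35 of 48 probes and 33 of 43 genes, against 49.9% of all probes. In the 2 brightest deciles of mean signal, where 32 of the 43 genes lay, 73.4% of all probes were below 0. The median was −0.22 over the genes and 0.0012 over all probes. Over the 22 settings run, which tested 43 to 49 member probes, 30 to 37 were negative. The share of all probes that was positive ran from 21.1% to 57.3% over those settings. With normexp background 33 of 48 members were negative, where 21.1% of all probes were positive. With the scan 3 arrays as the only high fat arrays 31 of 48 were negative, where 39.6% of all probes were positive. Unadjusted p from limma was under 0.05 for 11 of 48 probes, all of them lower on high fat diet. Over all probes the share was 20.1% in either direction (9.14% lower and 10.9% higher). The member count was 7 without high fat array 2, where 4098 of 25629 probes on the array had an unadjusted p under 0.05. It was 18 with array weights (7624 of 25629 on the array), with an intensity trend (5489) and with the arrays of scan day 1 (8400). With scan as a random block it was 1 of 48, while 1734 of 25629 probes on the array had an unadjusted p under 0.05. The 5 high fat values lay entirely below the 3 chow values in 17 of 48 probes, against 8.97% of all probes and 22.5% of those in the 2 brightest deciles. They lay entirely above them in 0 of 48, against 7.94% of all probes.

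In the main fit the intervals of nearly all genes lay within a 2-fold difference between the arrays of the 2 diets. That fit takes the arrays as independent, and no scan held both diets. The intervals therefore do not bound a difference due to diet alone. The standard error of the log2 fold change ran from 0.12 to 0.47 over the members, and the 95% interval lay within 2-fold in either direction for 42 of the 43 genes, the exception being Psma8. Psma4 and Psmb1 had no value on high fat array 4, where their spots were outliers, and were fitted without it.

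**Figure D1:**
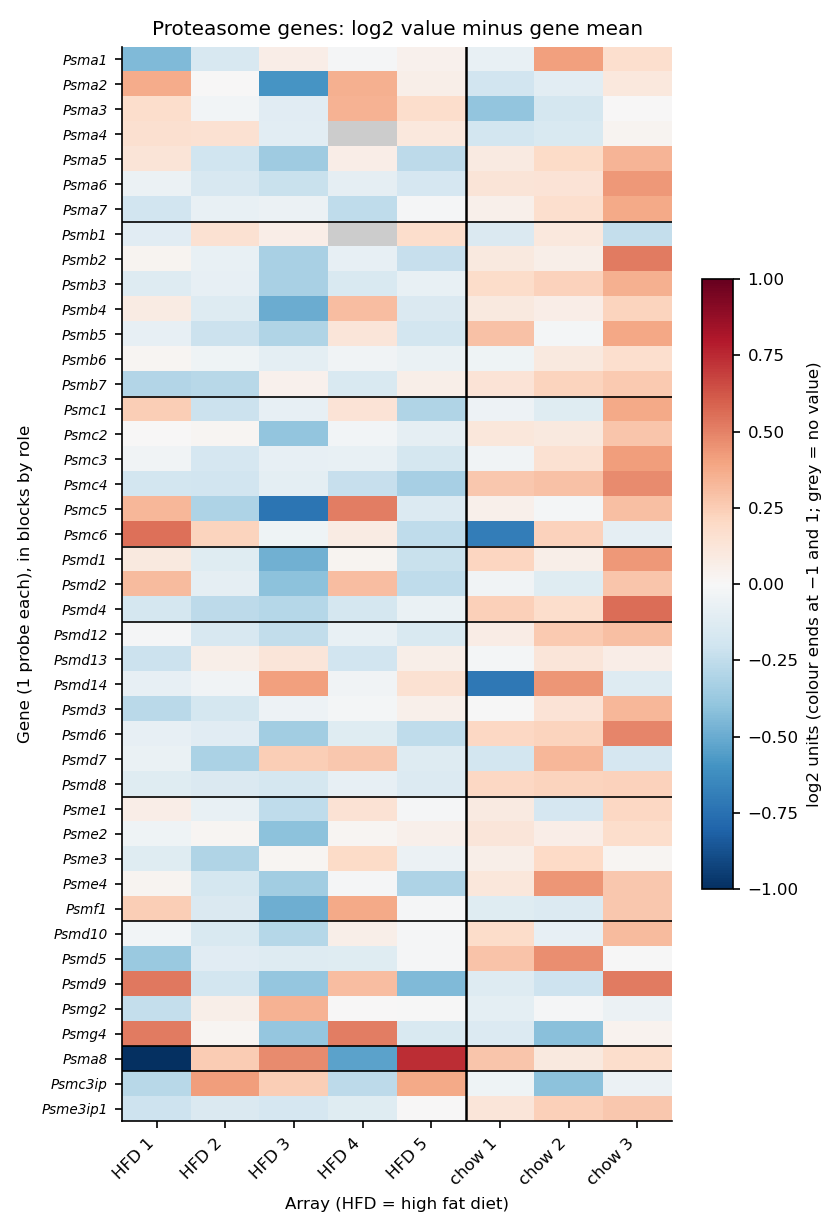
Each cell is the log2 value of 1 gene on 1 array minus the mean of that gene over the 8 arrays, with high fat arrays (HFD) left of the line and chow arrays right of it, and genes in blocks by role from the alpha ring at the top to the 2 non-subunits at the bottom. Chow array 3 has the highest mean deviation over the tested members (0.22), and grey cells are the 2 outlier spots on high fat array 4.

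**Figure D2:**
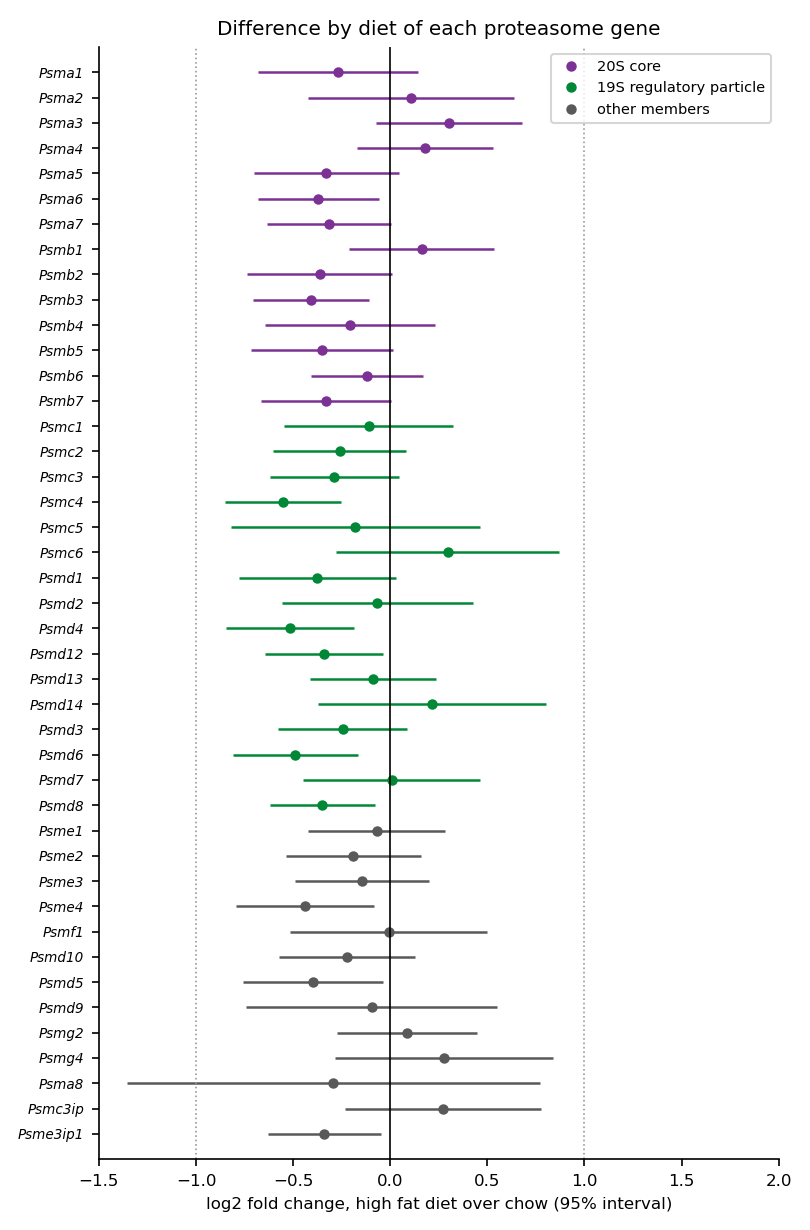
Points are log2 fold changes, high fat diet over chow, and bars their 95% intervals from limma, with core genes in purple, regulatory particle genes in green and the others in grey. The points run from −0.55 (Psmc4) to 0.30 (Psma3), and every interval but that of Psma8 lies between the dotted lines at 2-fold.

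The alpha ring had differences on both sides of 0. Its 7 genes had a median log2 fold change of −0.27, with 4 below 0 and 3 above. In limma 0 passed, against 3.45% of all probes, and 1 had an unadjusted p under 0.05, against 20.1%. Psma3, which had the largest positive difference of the 43 genes, had 2.12, 1.92, 1.83, 2.29 and 2.12 on high fat arrays 1 to 5, against 1.55, 1.76 and 1.95 on the chow arrays. The groups overlapped, since high fat arrays 2 and 3 lay below chow array 3. Its means were 2.06 ± 0.18 in the high fat samples (SD, n = 5) and 1.75 ± 0.20 in the chow samples (SD, n = 3), a log2 fold change of 0.30 ± 0.16 (SE, limma adjusted p = 0.346).

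Psma6, a further alpha subunit, stood on the other side of 0. It had 4.64, 4.54, 4.48, 4.62 and 4.54 on high fat diet, against 4.83, 4.84 and 5.13 on chow, with no overlap and a log2 fold change of −0.37 ± 0.14 (SE, limma adjusted p = 0.182). Psma7 had 3.24, 3.36, 3.38, 3.18 and 3.42 on high fat diet, against 3.49, 3.60 and 3.81 on chow, again with no overlap, and a log2 fold change of −0.32 ± 0.14 (SE, limma adjusted p = 0.253). The remaining alpha genes had log2 fold changes of −0.27 (Psma1), 0.11 (Psma2), 0.18 (Psma4) and −0.33 (Psma5), and their groups overlapped.

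The beta ring had differences below 0 in 6 of its 7 genes, with a median log2 fold change of −0.33. Of the 7 genes 0 passed in limma and 1 had an unadjusted p under 0.05, against 3.45% and 20.1% of all probes. The 3 active-site subunits were among those below 0. Psmb5, the chymotrypsin-like subunit and main target of proteasome inhibitor drugs, had 1.87, 1.74, 1.66, 2.07 and 1.78 on high fat diet, against 2.25, 1.94 and 2.34 on chow. High fat array 4 stood above chow array 2, so the groups overlapped at that point alone, and the log2 fold change was −0.35 ± 0.16 (SE, limma adjusted p = 0.264).

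Psmb7, the trypsin-like subunit, had 1.81, 1.83, 2.14, 1.95 and 2.16 on high fat diet, against 2.24, 2.32 and 2.37 on chow. Its groups did not overlap, and the log2 fold change was −0.33 ± 0.15 (SE, limma adjusted p = 0.252). Psmb6, the caspase-like subunit, was the tightest of the 3 on high fat diet, at 1.58, 1.51, 1.46, 1.52 and 1.50, against 1.51, 1.66 and 1.73 on chow, and differed by −0.12 ± 0.13 (SE, limma adjusted p = 0.655). The groups of Psmb6 overlapped at chow array 1.

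Psmb3, a beta subunit with no active site, had the largest negative difference in the core. It had 2.83, 2.87, 2.63, 2.81 and 2.89 on high fat diet, against 3.14, 3.19 and 3.32 on chow, a log2 fold change of −0.41 ± 0.13 (SE, limma adjusted p = 0.137), or 1.33-fold lower. Every high fat array lay below every chow array. The other beta genes differed by −0.36 (Psmb2, no overlap), −0.21 (Psmb4) and 0.16 (Psmb1).

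The 6 ATPases of the regulatory particle included the member with the largest negative difference and the one with the second largest positive difference. Their median log2 fold change was −0.22, with 5 below 0. Of the 6 genes 0 passed in limma and 1 had an unadjusted p under 0.05, against 3.45% and 20.1% of all probes. Psmc4 had 1.76, 1.75, 1.84, 1.71 and 1.61 on high fat diet, against 2.21, 2.24 and 2.42 on chow. The gap between the groups was wider than the range within either. Means were 1.73 ± 0.09 in the high fat samples (SD, n = 5) and 2.29 ± 0.11 in the chow samples (SD, n = 3), and the log2 fold change was −0.55 ± 0.13 (SE, limma adjusted p = 0.0622), or 1.47-fold lower. Psmc4 passed in 3 of the 22 settings, with array weights, with an intensity trend in the variance, and with normexp background and quantile normalization together, and its log2 fold change ran from −0.59 to −0.42.

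Psmc6 stood on the other side of 0. It had 1.63, 1.30, 1.04, 1.16 and 0.83 on high fat diet, against 0.39, 1.31 and 0.99 on chow, with the groups interleaved and a log2 fold change of 0.30 ± 0.25 (SE, limma adjusted p = 0.567). Chow array 1 was its lowest value, and the difference was 0.043 without that array and 0.50 without chow array 2. The other ATPases lay between these, at −0.11 (Psmc1), −0.26 (Psmc2), −0.29 (Psmc3) and −0.18 (Psmc5). Psmc2 and Psmc3 had no overlap between the diets, whereas Psmc5 spanned 3.51 to 4.75 on high fat diet, against 4.23 to 4.54 on chow.

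Among the non-ATPase subunits of the base all 3 differences were below 0, with a median of −0.38. Of the 3 genes 0 passed in limma and 1 had an unadjusted p under 0.05, against 3.45% and 20.1% of all probes. Psmd4, a receptor that binds ubiquitin chains, had 1.23, 1.14, 1.11, 1.22 and 1.33 on high fat diet, against 1.64, 1.58 and 1.96 on chow. There was no overlap, and the log2 fold change was −0.52 ± 0.14 (SE, limma adjusted p = 0.0969), or 1.43-fold lower. Psmd4 passed in the same 3 settings as Psmc4. Psmd1 and Psmd2 encode the large scaffold subunits, and Psmd2 also docks the shuttles that deliver substrates. Psmd1 had 4.17, 3.96, 3.59, 4.11 and 3.85 on high fat diet, against 4.29, 4.13 and 4.51 on chow, overlapping at high fat array 1 and chow array 2, and differed by −0.38 ± 0.18 (SE, limma adjusted p = 0.280). Psmd2 differed by −0.07 ± 0.22 (SE, limma adjusted p = 0.902).

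The lid had 5 of 7 genes below 0 and a median of −0.25. Of the 7 genes 0 passed in limma and 3 had an unadjusted p under 0.05, against 3.45% and 20.1% of all probes. Psmd6 had 4.42, 4.40, 4.16, 4.39 and 4.25 on high fat diet, against 4.72, 4.73 and 4.99 on chow. Its groups did not overlap, and the log2 fold change was −0.49 ± 0.14 (SE, limma adjusted p = 0.106), or 1.40-fold lower. Psmd14, the lid enzyme that cuts the ubiquitin chain from the substrate, had −0.79, −0.74, −0.29, −0.74 and −0.56 on high fat diet, against −1.42, −0.27 and −0.83 on chow. The chow values of Psmd14 enclosed all the high fat values, and its log2 fold change of 0.22 ± 0.26 (SE, limma adjusted p = 0.704) was −0.075 without chow array 1.

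Psmd8, singled out after its values were seen, had the smallest spread of the members. It had 2.36, 2.34, 2.31, 2.40 and 2.35 on high fat diet, against 2.69, 2.71 and 2.71 on chow, a log2 fold change of −0.35 ± 0.12 (SE, limma adjusted p = 0.152), with SDs of 0.03 on high fat diet and 0.01 on chow. The SE from limma is larger than these SDs alone would give, since the variance of each probe is moved toward that of all probes. Psmd12 differed by −0.34 with no overlap, Psmd3 by −0.25, Psmd13 by −0.09 and Psmd7, the partner of Psmd14, by 0.01. The lid gene Psmd11 was not found by symbol on the array and was not analysed here.

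The alternative caps of the core and its inhibitor had differences below 0 in 5 of 5 genes, with a median of −0.15. Of the 5 genes 0 passed in limma and 1 had an unadjusted p under 0.05, against 3.45% and 20.1% of all probes. Psme4 encodes a large nuclear activator, and its brighter probe had 1.90, 1.70, 1.53, 1.86 and 1.57 on high fat diet, against 1.98, 2.32 and 2.14 on chow. That probe did not overlap between diets and differed by −0.44 ± 0.16 (SE, limma adjusted p = 0.170). A dimmer probe of Psme4 differed by 0.11 ± 0.22 (SE, limma adjusted p = 0.836), so the 2 probes disagreed in sign.

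Psme1 and Psme2 encode the interferon-inducible activator that works with the immunoproteasome. Psme1 differed by −0.07 ± 0.15 (SE, limma adjusted p = 0.856) and Psme2 by −0.19 ± 0.15 (SE, limma adjusted p = 0.536). Psme3, its nuclear relative, differed by −0.15 ± 0.15 (SE, limma adjusted p = 0.647). Psmf1 encodes an inhibitor of the core, and its 2 probes differed by −0.01 and −0.35, the second with adjusted p = 0.288 from limma.

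Of the 5 assembly chaperones 3 were below 0, with a median of −0.10. In limma 0 passed, against 3.45% of all probes, and 1 had an unadjusted p under 0.05, against 20.1%. Psmd5 differed by −0.40 ± 0.16 with no overlap (SE, limma adjusted p = 0.210), and Psmd10 differed by −0.22. Psmd9 had −0.10 at its brighter probe and −0.50 at its dimmer one, the dimmer with no overlap between diets (limma adjusted p = 0.122). These 3 help to build the ATPase ring. Psmg2 and Psmg4, which help to build the alpha ring, differed by 0.09 ± 0.16 (SE, limma adjusted p = 0.818) and by 0.28 ± 0.25 (SE, limma adjusted p = 0.589), and the second probe of Psmg4 by 0.14. Psmg1 and Psmg3 were not found by symbol on the array and were not analysed here.

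Psma8, the alpha subunit of the testis proteasome, was dim in liver. Its brightest probe averaged −3.33 ± 0.90 in the high fat samples (SD, n = 5) and −3.04 ± 0.09 in the chow samples (SD, n = 3), a second tested probe differed by 0.47 (limma adjusted p = 0.323), and its remaining probe was above background on too few arrays to test. Psmc3ip, a cofactor of meiotic recombination, differed by 0.27 ± 0.22 (SE, limma adjusted p = 0.548). Psme3ip1, which encodes a binding partner of the nuclear activator, had −0.19, −0.13, −0.15, −0.10 and 0.02 on high fat diet, against 0.14, 0.26 and 0.29 on chow, with no overlap and a difference of −0.34 ± 0.13 (SE, limma adjusted p = 0.188).

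The core and the regulatory particle were close to each other on every array. The median log2 fold change was −0.29 over the 14 core genes (10 below 0) and −0.25 over the 16 regulatory particle genes (13 below 0), against 0.0012 over all probes. Relative to the median of all probes of the same setting both medians were below 0 with quantile normalization (−0.12 in the core and −0.10 in the regulatory particle) but above 0 with normexp background (0.11 and 0.21), a setting that moved the median of all probes to −0.30. High fat values lay entirely below chow values in 5 of 14 core genes and 7 of 16 regulatory particle genes. The share was 8.97% of all probes and 22.5% of the probes in the 2 brightest deciles of mean signal. All 14 core genes and 11 of the 16 regulatory particle genes lay in those deciles.

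For each array the deviations of the genes from their own means were averaged over the core and over the regulatory particle. The core average was −0.02, −0.08, −0.20, 0.03 and −0.04 on the high fat arrays, against 0.0032, 0.09 and 0.22 on the chow arrays. The regulatory particle average was 0.02, −0.12, −0.17, 0.02 and −0.14 on the high fat arrays, against −0.02, 0.16 and 0.26 on the chow arrays. Both averages overlapped between diets, since high fat array 4 stood above chow array 1 in each.

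Core minus regulatory particle was −0.04, 0.04, −0.04, 0.02 and 0.10 on the high fat arrays, against 0.03, −0.07 and −0.04 on the chow arrays. The mean was 0.017 ± 0.060 in the high fat samples (SD, n = 5) and −0.026 ± 0.047 in the chow samples (SD, n = 3), a difference of 0.043, smaller than the SD within either diet. Core and regulatory particle were furthest apart on high fat array 5, by 0.104.

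**Figure D3:**
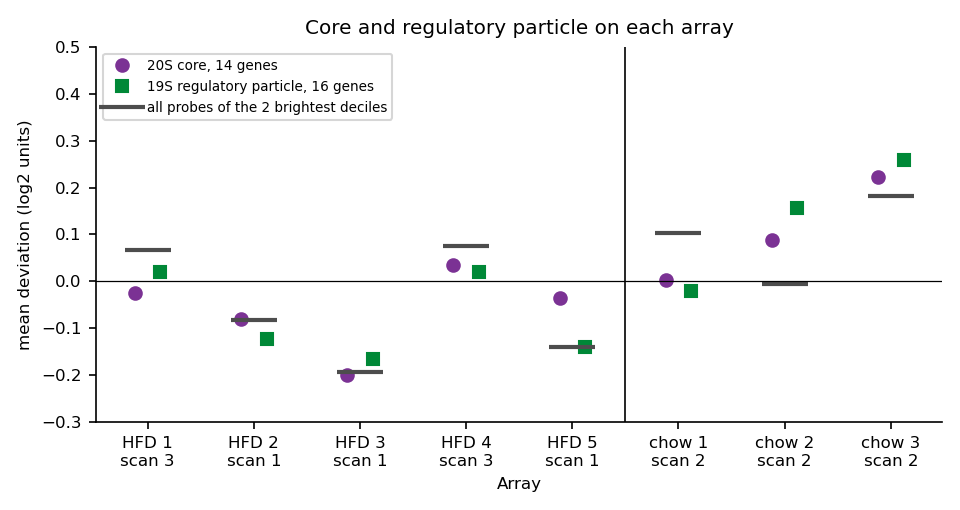
Circles are the mean deviation of the 14 core genes and squares that of the 16 regulatory particle genes on each array, in log2 units, with high fat arrays left of the line, chow arrays right of it, and the scan of each array below it. Dashes are the mean deviation of all probes in the 2 brightest deciles, and on high fat arrays 2 and 3 the 3 marks lie close together.

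The members sat mostly among bright probes, and the difference by diet varied with brightness over the whole array. When the kept probes were ranked by mean signal and cut into deciles, the median log2 fold change was 0.53 in the dimmest decile and −0.24 in the brightest. Of the 43 genes 32 lay in the 2 brightest deciles. Of those 32 genes 27 were below 0, against 73.4% of all probes in those deciles, 15 had high fat values entirely below chow values, against 22.5%, and 9 had an unadjusted p under 0.05 with the lower value on high fat diet, against 22.0%. Of those 32 genes 0 fell past the adjusted test, against 0.839% of the bright probes.

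Their median log2 fold change was −0.28, against −0.20 over all 5126 probes of those deciles. Set against the median of its own decile, a gene was lower in 24 of 43 cases, with a median of −0.03. The 11 dimmer genes had 6 below 0 and a median of −0.09. The part of brightness in the differences of the members was not tested.

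**Figure D4:**
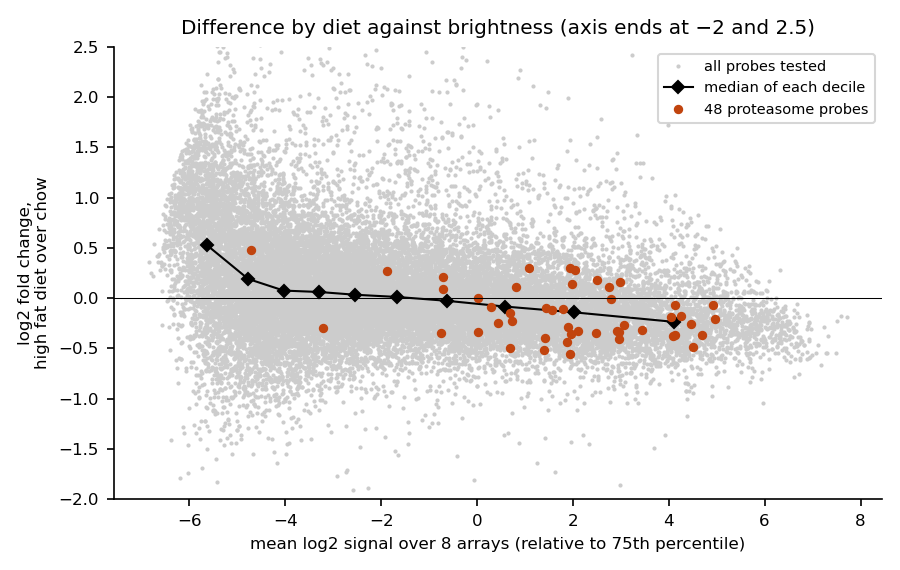
Grey points are all probes kept, with mean log2 signal over the 8 arrays on the horizontal axis and log2 fold change, high fat diet over chow, on the vertical axis. Diamonds are the medians of the deciles, from 0.53 at the dim end to −0.24 at the bright end, and the 48 orange proteasome probes follow that line with scatter on both sides.

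Within the high fat diet, many members were ordered by scan. The 2 arrays of scan 3 (1 and 4) both lay above the 3 arrays of scan 1 in 20 of 43 genes and 21 of 48 probes, against 20.3% of all probes, and both lay below them in 7 of 48 probes, against 38.2%. All 20 genes were among the 32 bright ones, where 49.4% of all probes showed the same order. Scan 3 lay below scan 1 in 2 of those 32 genes and in 351 of the 5126 probes of the same deciles. Psmc5 had 4.58 and 4.75 on high fat arrays 1 and 4, and 3.93, 3.51 and 4.11 on arrays 2, 3 and 5. Psmd9 at its brighter probe, Psmg4 and Psmd2 showed the same order, with scan 3 above scan 1 by 0.75, 0.69 and 0.57 in the mean. The dimmer probe of Psmd9 did not, with scan 3 minus scan 1 at −0.14.

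Psmc4 and Psmd4 were not split in this way. The mean of scan 3 minus that of scan 1 was 0.0026 for Psmc4 and 0.03 for Psmd4, and both sets of high fat arrays lay below chow. All chow arrays were in scan 2, and with scan as a random block neither gene passed. Scan and diet cannot be told apart in these differences.

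The related genes of the ubiquitin pathway, 25 of which are reported here, had 1 that passed, Nfe2l1, and it was lower on high fat diet. Over all probes 3.45% passed in either direction and 0.453% were lower. Nfe2l1 encodes NRF1, the factor that raises proteasome genes. It had −0.19, −0.12, −0.32, −0.39 and −0.35 on high fat diet, against 0.36, 0.26 and 0.35 on chow. All high fat values were below 0 and all chow values above it. Means were −0.27 ± 0.12 in the high fat samples (SD, n = 5) and 0.32 ± 0.06 in the chow samples (SD, n = 3), a log2 fold change of −0.60 ± 0.13 (SE, limma adjusted p = 0.0488), or 1.51-fold lower. The adjusted p lay just under the threshold: Nfe2l1 passed in 9 of 22 settings and in 0 of the 8 that left out an array, while its log2 fold change stayed between −0.64 and −0.53. With scan as a random block it did not pass either.

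Of the other factors, Nfe2l2, which encodes the oxidative stress factor NRF2, had a positive difference. It had 4.15, 4.19, 4.11, 3.74 and 3.76 on high fat diet, against 3.60, 3.79 and 3.49 on chow, with arrays 4 and 5 below chow array 2, and differed by 0.36 ± 0.17 (SE, limma adjusted p = 0.273). Ngly1, whose product removes sugars from NRF1 on the way to its active form, differed by −0.36 ± 0.15 (SE, limma adjusted p = 0.240).

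The 3 immunoproteasome subunits, which replace the active-site subunits when interferon acts, showed no shared direction. Psmb10 had 3.69, 3.04, 2.36, 4.04 and 3.34 on high fat diet, against 2.81, 2.91 and 2.95 on chow. Its high fat values were spread on both sides of the chow values, highest on arrays 1 and 4, and the difference was 0.40 ± 0.34 (SE, limma adjusted p = 0.567). With the scan 3 arrays as the only high fat arrays the difference in Psmb10 was 0.98 and passed (limma adjusted p = 0.0378), and with the high fat arrays of scan day 1 alone it was 0.021 (limma adjusted p = 0.962). Psmb8 differed by 0.05 ± 0.23 (SE, limma adjusted p = 0.940) and Psmb9 by −0.22 ± 0.23 (SE, limma adjusted p = 0.666).

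Subunits and partners known by other names had differences on both sides of 0, with 4 of 7 below. Adrm1, a ubiquitin receptor of the regulatory particle, had 2.58, 1.75, 1.71, 2.94 and 2.14 on high fat diet, against 1.47, 1.48 and 2.06 on chow, and differed by 0.56 ± 0.31 (SE, limma adjusted p = 0.365). It too was highest on high fat arrays 1 and 4. Pomp, the chaperone that matures the core, differed by −0.08 ± 0.13 (SE, limma adjusted p = 0.780), and Usp14, a deubiquitinase that docks on the regulatory particle, by 0.13 ± 0.16 (SE, limma adjusted p = 0.711). Fbxo7, a ubiquitin ligase part that binds the proteasome inhibitor, was singled out after its values were seen: it differed by −0.57 ± 0.14 (SE, limma adjusted p = 0.0659) with no overlap between diets.

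Ubb and Rps27a are genes that encode ubiquitin, and Rps27a had probes on both sides of 0. Ubb had 5.88, 5.64, 5.70, 5.84 and 5.74 on high fat diet, against 6.42, 5.88 and 6.64 on chow, where the highest high fat value and the lowest chow value were equal to 2 decimals. It differed by −0.56 ± 0.19 (SE, limma adjusted p = 0.152). Rps27a differed by 0.35 ± 0.22 at its brighter probe (SE, limma adjusted p = 0.421), while the dimmer probe of Rps27a differed by −0.03. The 8 shuttle and segregase genes had 6 below 0 and a median of −0.17. In limma 0 passed, against 3.45% of all probes, and 2 had an unadjusted p under 0.05, against 20.1%.

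**Figure D5:**
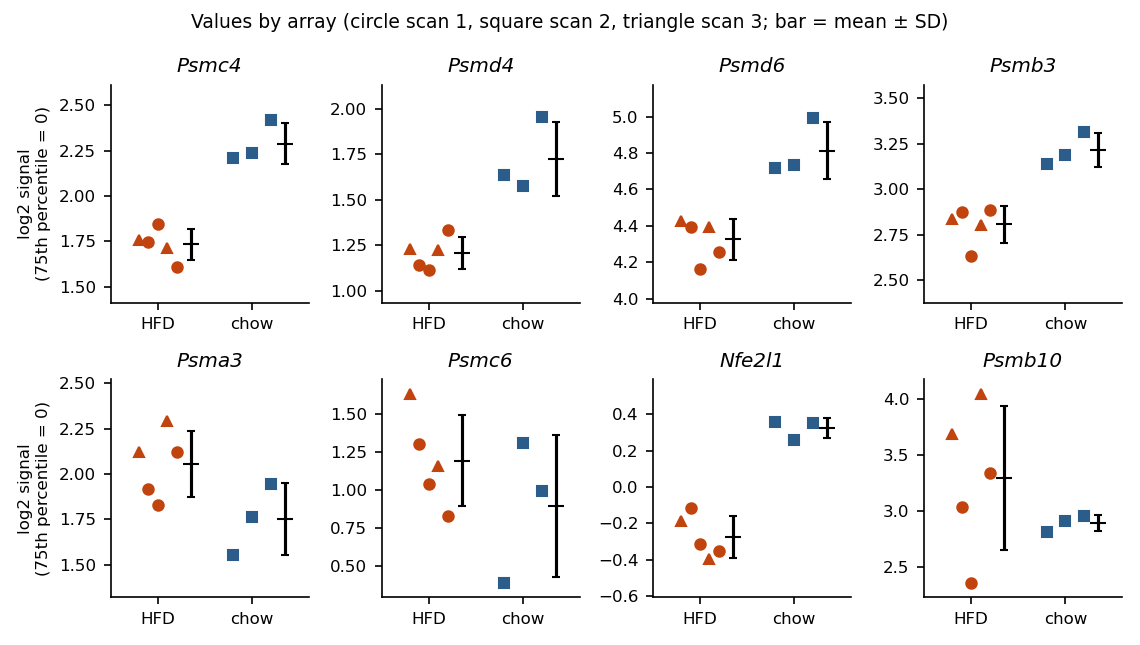
Log2 signal relative to the 75th percentile of the array is plotted for 8 genes, with high fat arrays left and chow arrays right, marker shape by scan and bars for the mean ± SD. Psmc4, Psmd4, Psmd6, Psmb3 and Nfe2l1 show no overlap between the diets, and Psma3, Psmc6 and Psmb10 do.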

How the data were processed

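Gene expression was measured in 8 rat liver samples with single-colour Agilent arrays. Agilent Feature Extraction 11.0.1.1 read the scans, per the submitters' processing notes. The scanner files hold the processed signal as intensity, background-subtracted and unscaled from array to array, per the file headers, together with median signals and local backgrounds in intensity units. The authors' deposited value table holds log2 values whose 75th percentile is the same on every array. How the authors made it is not given in the sources used here, and it served as an alternative.

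Control and outlier spots were left out, and no spot was saturated. The log2 processed signals of a probe's spots were averaged and set relative to the array's 75th percentile. Probes with a share of 0.5 or more of their spots well above background on 3 or more of the 8 arrays were tested (25629 probes). Probes were named through RefSeq accessions on GRCr8 (18005 of 30367 probes). A gene was read at its kept probe with the highest mean. High fat diet was compared with chow in limma 3.58.1 (R 4.3.3; lmFit and eBayes, two-sided), adjusted over all kept probes, with a threshold of 0.05. Sums over members have no test. The fit was tested on simulated data.

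Some related genes of the lists are not reported here. Named genes are any member or related gene that passes, the 5 largest differences in each direction, and genes fixed by role; the rest are named to account for every member. The members, gene lists, tests and alternatives were chosen with earlier results of these data known. Precision is limited by the number of arrays. Normexp used the median signal, since the files hold no mean signal column. Replicate numbers in the titles are shared between diets. Arrays with the same number deviated together at correlations of 0.045, 0.035 and 0.061, which does not settle whether they are pairs. They were not treated as pairs in the main fit. Alternatives were other normalizations, background corrections, filters, variance models, the deposited table, scan and replicate blocks, single scans, and each array left out.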

Additional observations from a re-analysis of the deposited data

Results flagged for a closer look

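In 60 sets of high fat values tested for an array that stands apart from the others, 3 were marked; chance marks about 1 in 20. In Psme2 the gap between array 3, at 3.64, and the other high fat arrays, at 4.01 to 4.10, took up 0.795 of the range, above the critical share of 0.710 for 5 arrays. In Psmc2 array 3 stood at 4.07 and the others at 4.38 to 4.50, a share of 0.734. In the dimmer probe of Psmd9 array 4 stood at 0.32 and the others at 0.53 to 0.60, a share of 0.741. High fat array 3 also had the highest share of probes above background, 92.8%, and the lowest averages of the core (−0.20) and of the regulatory particle (−0.17); its part in the low Psme2 and Psmc2 values was not tested.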

How the results depend on the processing

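No member passed in 19 of 22 settings. With normexp background and quantile normalization 5 did (Psma4, Psmc4, Psmd4, Psmd6 and Psme3ip1), and 2 did with array weights and with an intensity trend (Psmc4 and Psmd4 in both). Passing related genes numbered 6, 3 and 2 in those settings, and 0 with normexp background, with no filter on dim probes, with scan as a random block, and with any array left out (0 to 0). The replicate block gave 0 related genes and 0 calls over the whole array (3435 at an unadjusted p under 0.05, 1 of them a member), with Psmb8 at −0.19. High fat arrays 1 and 3 correlated best with the chow array of the same number (0.045 and 0.061). High fat array 2 correlated better with chow array 3 (0.054) than with chow array 2 (0.035). Correlations this small cannot settle whether the numbers pair the samples. Over all probes the calls were 884, against 136 with normexp, 2317 with normexp and quantile, 2688 with array weights, 76 with the scan block, 3159 with scan day 1, 2003 with scan 3 and 402 to 864 with an array left out.

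Relative to all probes, the core and regulatory particle medians, −0.29 and −0.25, were −0.12 and −0.10 with quantile normalization, −0.12 and −0.10 in the authors' deposited table, 0.11 and 0.21 with normexp, −0.14 and −0.021 with normexp and quantile, and −0.022 and −0.071 with scan 3 alone; with scan day 1 the regulatory particle was at −0.42. The cause was not tested.

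Small uncalled differences changed sign. With quantile normalization Pomp was at 0.099, Psmc5 at 0.022, Psmd2 at 0.14, Psme1 at 0.12, Psme2 at 0.0071 and Psmf1 at 0.12. In the authors' deposited table Pomp was at 0.099, Psmc5 at 0.024, Psmd2 at 0.14, Psme1 at 0.12, Psme2 at 0.0062 and Psmf1 at 0.11. With normexp Pomp was at 0.024, Psmb8 at −0.012, Psmb9 at 0.17, Psmc1 at 0.017, Psmc2 at 0.047, Psmf1 at 0.084 and Psmg2 at −0.013. With normexp and quantile Pomp was at 0.11, Psmb8 at −0.0032, Psmb9 at 0.20, Psmc1 at 0.034, Psmc2 at 0.15, Psme1 at 0.035 and Psmf1 at 0.11. With scan 3 alone Pomp was at 0.0067, Psmb9 at 0.0033, Psmc1 at 0.12, Psmc3ip at −0.10, Psmc5 at 0.31, Psmd2 at 0.27, Psme1 at 0.062, Psmf1 at 0.31 and Psmg2 at −0.065. Psmb8 was at −0.027 with array weights and −0.074 with scan day 1, and Psmf1 at 0.025 with the scan block. With each array left out Psmf1 ran from −0.10 to 0.12, Psmb8 from −0.095 to 0.16, Psme1 from −0.17 to 0.012, Psmd2 from −0.15 to 0.051, Psmc1 from −0.21 to 0.043 and Psmd14 from −0.075 to 0.50.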
